A study of Mus musculus with 9 samples.

Results

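The 46 genes described here encode proteins that carry cells through G2 and mitosis, and were measured in mouse neuroblastoma cells expressing different forms of the RNA helicase MOV10. They were chosen by name, with kinesin motor genes other than Cenpe left out, from the 15977 genes of the deposited expression table. All 46 were in it. By role they comprised 6 cyclin, CDK1 and CDC25 genes, 5 mitotic kinases, 6 genes of the spindle checkpoint and anaphase onset, 4 of the chromosomal passenger complex, 5 of the centromere and kinetochore, 9 of the spindle and its microtubules, 7 of chromosome structure and 4 of cytokinesis and related steps. All 9 libraries came from N2A cells, a mouse neuroblastoma line that the labels call a neurocarcinoma line, with a MOV10 knockout. Transfection lasted 24 hours, with 2 µg of DNA for wild-type MOV10 (WT), for MOV10 with alanine in place of serine 970 (S970A, which cannot be phosphorylated there) or for MOV10 with aspartate there (S970D, which mimics phosphorylation). Each of the 3 groups had 3 libraries of polyadenylated RNA, sequenced on 1 NovaSeq lane. No untransfected library was analysed here, so every group carried both the knockout and a MOV10 plasmid. The sources used here do not say whether the knockout line is 1 clone or whether replicates came from separate cultures, so the p-values measure the spread between these libraries, which may be technical.

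Cells enter mitosis when CDK1 bound to cyclin A or cyclin B phosphorylates its targets. Polo-like and Aurora kinases then build the spindle, condensin compacts the chromosomes, and the spindle checkpoint holds back the anaphase-promoting complex (APC/C) until every kinetochore is attached to microtubules. Most of these genes are transcribed in G2 under the MuvB, B-MYB and FOXM1 factors and repressed earlier in the cycle by the DREAM complex, whose LIN54 subunit contacts a promoter word called the cell cycle genes homology region (CHR).

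Levels are log2 CPM values (log2 of scaled counts) as the authors deposited them, with no read counts, so the depth behind each value is unknown. Summed CPM over all genes was 957791 to 981473 in WT, 955214 to 1069215 in S970A and 1014839 to 1067717 in S970D. The highest of these sums exceed what scaling to library size alone can give. The part of this scaling in the results was not tested. Mov10 read 14.9 to 15.71 in WT, 14.62 to 15.42 in S970A and 14.57 to 14.84 in S970D. Its difference between S970D and WT was -0.65 ± 0.29 (SE of the limma fit, as for all differences below), with a limma adjusted p of 0.111, or 0.0323 with the replicate number as a block. Transfected and endogenous Mov10 cannot be told apart in this value, and the part of the Mov10 level in the results below was not tested. The markers of neuroblastoma and sympathetic neurons were all in the table (12 of 12), against 2 of 5 for fibroblasts, 1 of 5 for macrophages and leukocytes, 2 of 4 for endothelium, 2 of 4 for epithelium and 1 of 5 for Schwann cells and glia. In each library the summed CPM of the measured markers was 2250 to 3830 for neuroblastoma, 11.3 to 19.7 for fibroblasts, 7.7 to 12.3 for endothelium and at most 4.71 for each of the others. The neuroblastoma sum was 2300 to 2580 in WT and 3250 to 3830 in S970D, and the sole macrophage marker in the table was at 0.498 to 0.746 in WT and 1.24 to 2.28 in S970D, and their part in the results was not tested. Replicate 1 of S970A stood apart from its group. It was nearer the S970D mean than the WT mean in 42 of the 46 mitosis genes, against 4 for S970A replicate 2 and 3 for S970A replicate 3. Replicate 1 of WT was nearer the S970D mean in 16 genes, the other WT libraries in 2 and 5. Results that rest on S970A are therefore also given without its replicate 1.

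In S970D against WT the mitosis genes differed in both directions and by very different amounts. The lowest differences on the log2 scale belonged to Smc2 (-1.57), Ect2 (-1.24), Anln (-1.19), Ccna2 (-1.08) and Smc4 (-1.01), and the highest to Ncapd2 (0.77), Pttg1 (0.69), Cdc20 (0.66) and Tacc3 (0.64). Cdk1, Plk1, Aurka, Ccnb2 and Cenpf lay within 0.07 of 0. The median over the 46 genes was -0.20, with 29 below 0 and 17 above, beside a median of -0.00 over all genes. Bulk RNA cannot separate fewer cells in G2 and mitosis from less of each RNA per cell.

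With limma on all 9 libraries and the group as the only term, 0 of the 46 genes passed an adjusted p of 0.05 in S970D against WT, and 0.00626% of all genes did (1 gene). At an adjusted p under 0.1 there were 24 members (52.2%), beside 39.6% of all genes, and at an unadjusted p under 0.05 there were 26 (56.5%), beside 44.3%. With the replicate number as a block, the 20 genes that passed as lower in S970D made up 43.5% of the members, beside 23.3% of all genes. The 6 that passed as higher were a smaller share than the 22.2% of all genes. Over a large share of the whole table, then, S970D and WT differed in the blocked fit, and the members' shares are read against that. Another fit, with no block, left out S970A replicate 1, a library of neither group that enters only through the shared spread. This fit called 20 members lower and 6 higher, beside 24.9% and 22.8% of all genes. Leaving out a library that stands apart from its group narrows the spread by construction. The 26 members called in this fit are the same as with the block, so these counts are no further support. Leaving out any other library called 0 members. The S970D and WT libraries did not overlap in 22 members that were lower in S970D, where 29.3% of all genes did so, and in 9 that were higher, where 27.9% did. In the text below "passed with the block" means an adjusted p under 0.05 in the limma fit with the replicate block. The labels do not say that the replicate numbers mark pairs, and none of these genes passed without the block. The limma adjusted p without it was 0.0756 to 0.138 over the 26 members, and it stands beside the blocked value for the genes given in every library.

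**Figure D1:**
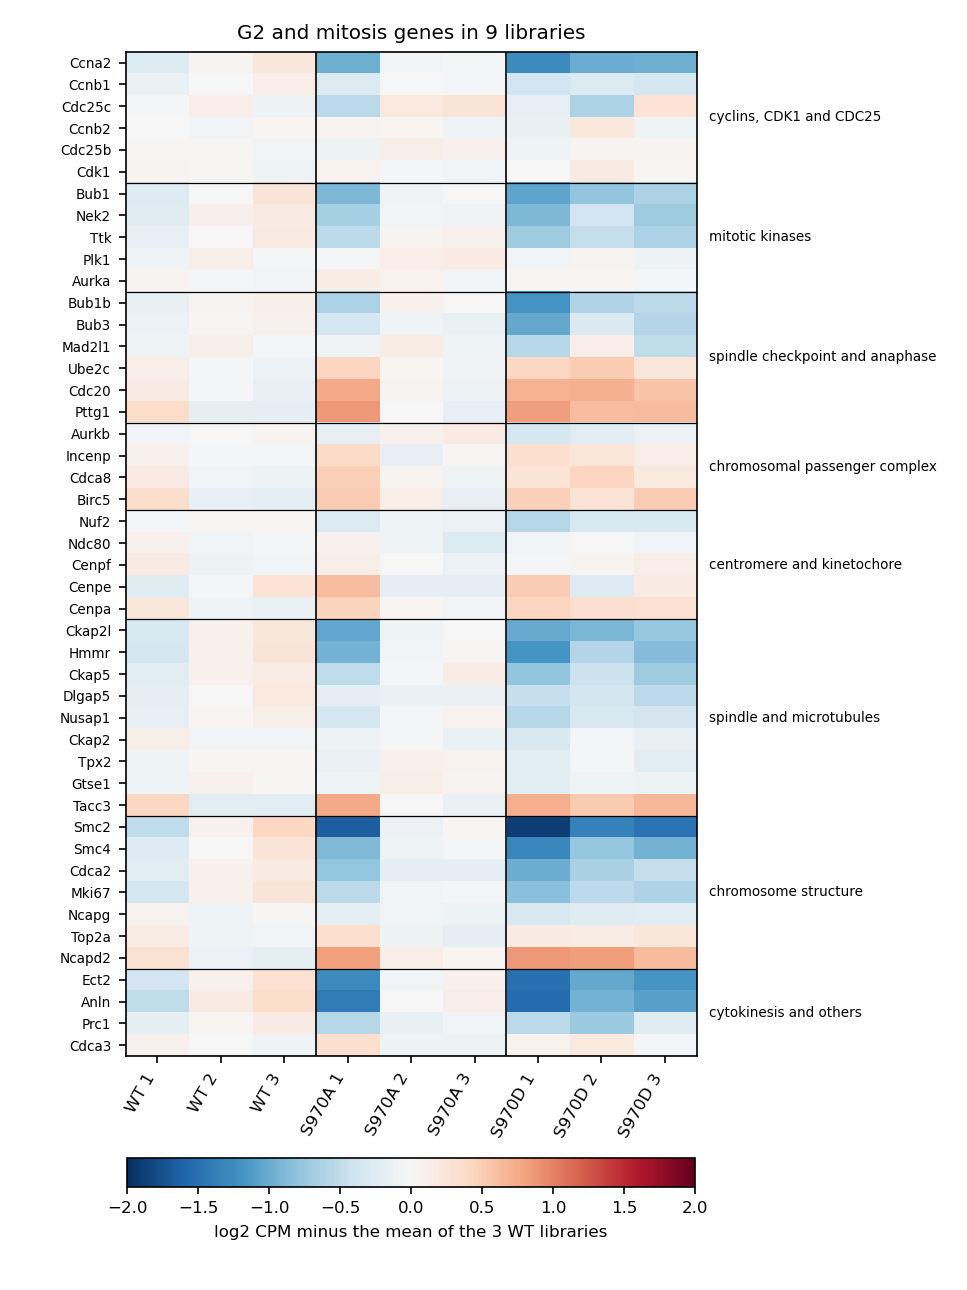
Log2 CPM of the 46 genes (rows, grouped by role) in the 9 libraries (columns), shown as the difference from the mean of the 3 WT libraries, blue for lower and red for higher. The S970D columns and S970A replicate 1 hold the strongest blues, down to -1.88 for Smc2 in S970D replicate 1, and S970A replicates 2 and 3 stay within 0.28 of the WT mean.

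The promoters of 6 members, chosen with their values known, are shown because they carry the same control words. In the values as deposited, their RNAs differed in opposite directions or hardly at all. This sorting depends on the processing. With the length and GC trend described below removed, and the block, Cdk1 (0.46, limma adjusted p 0.0414) and Top2a (0.83, 0.0281) passed as higher. Cdc20 (0.23, 0.144) did not pass there. Of the 46 members, 38 were found by symbol in the RefSeq promoter windows of GRCm38.p6, which run from 250 bases before to 50 after a gene's start. Both strands were searched for the CHR, TTTGAA or TTCAAA on the other strand, and for the CCAAT box, CCAAT or ATTGG, to which NF-Y binds. A CHR and a CCAAT word can share at most 1 base, and the CCAAT box read on both strands at most 2, as 1 pair in Ube2c does. The CHR was in 26 of 38 member windows (68.4%) and in 20.2% of the windows of all 27025 genes, the CCAAT box in 30 (78.9%) and 41.1%, and both in 24 (63.2%) and 8.97%. Among matched members the CHR was in 11 of the 16 that passed as lower in S970D with the block (68.8%), in 4 of the 6 that passed as higher (66.7%) and in 11 of the 16 that passed in neither direction (68.8%). A match is a description of the letters and not of binding. The 150 bases before each start are given 5′ to 3′ on the strand of the gene, with CHR and CCAAT words in capitals on either strand. Smc2 (chr4:52439071-52439220, plus strand) and Ect2 (chr3:27153879-27154028, minus strand) passed as lower in S970D with the block, Ncapd2 (chr6:125191587-125191736, minus strand) and Cdc20 (chr4:118437344-118437493, minus strand) as higher, and Cdk1 (chr10:69352913-69353062, minus strand) and Top2a (chr11:99024190-99024339, minus strand) passed in neither direction.
Smc2: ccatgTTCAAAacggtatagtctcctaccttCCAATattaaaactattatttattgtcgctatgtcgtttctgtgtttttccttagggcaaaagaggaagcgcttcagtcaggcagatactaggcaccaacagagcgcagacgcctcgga
Ect2: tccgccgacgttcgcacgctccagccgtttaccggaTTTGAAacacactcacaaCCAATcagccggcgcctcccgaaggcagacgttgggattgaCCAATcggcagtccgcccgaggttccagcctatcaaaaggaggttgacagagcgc
Ncapd2: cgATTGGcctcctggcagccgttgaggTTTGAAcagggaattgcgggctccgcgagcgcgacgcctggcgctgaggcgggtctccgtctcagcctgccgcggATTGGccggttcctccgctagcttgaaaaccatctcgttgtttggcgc
Cdc20: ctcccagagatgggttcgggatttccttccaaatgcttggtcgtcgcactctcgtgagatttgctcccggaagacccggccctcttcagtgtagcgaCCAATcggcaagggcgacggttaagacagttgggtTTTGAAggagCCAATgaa
Cdk1: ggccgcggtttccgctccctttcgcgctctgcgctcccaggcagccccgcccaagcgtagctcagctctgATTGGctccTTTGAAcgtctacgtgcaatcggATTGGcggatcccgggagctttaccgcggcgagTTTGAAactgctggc
Top2a: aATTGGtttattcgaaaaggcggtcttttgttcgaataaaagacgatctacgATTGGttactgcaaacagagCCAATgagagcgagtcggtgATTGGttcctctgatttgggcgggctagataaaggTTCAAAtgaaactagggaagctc
The first CHR base, counted from -1 just before the start, lay at -145 in Smc2, -114 in Ect2, -123 in Ncapd2, -18 in Cdc20 and -23 in Top2a, and Cdk1 held a pair at -71 and -15. Each of the 6 sequences also held at least 1 CCAAT word, from 1 in Smc2 to 4 in Top2a.

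Of the cyclin, CDK1 and CDC25 genes, 2 of 6 passed with the block, both lower in S970D. Ccna2, the cyclin A2 gene, whose product acts in S phase and at mitotic entry, read 7.51, 7.84 and 8.01 in WT, 6.82, 7.73 and 7.76 in S970A, and 6.51, 6.80 and 6.81 in S970D. All S970D values lay below every WT and S970A value, and S970A replicate 1 at 6.82 was close to them. Ccna2 in S970D was at 0.473 of its WT level (-1.08 ± 0.26 on the log2 scale, limma adjusted p 0.0756, with the block 0.00642). Its exons overlap those of Exosc9 on the other strand, and whether the authors' quantification used strand is not stated by the labels. In all, exons of 13 members overlap another gene on the other strand and those of 3 on the same strand, which leaves their values uncertain to that extent. Ccnb1, which encodes the mitotic cyclin B1, read 7.17, 7.30 and 7.43 in WT, 7.03, 7.30 and 7.28 in S970A, and 6.91, 7.02 and 6.95 in S970D. The S970D libraries were again below all others, by a smaller step of -0.34 ± 0.13 against WT (limma adjusted p 0.0897, with the block 0.0361). Reads of Ccnb1 and Ccnb2 may be shared with pseudogenes named Ccnb1-ps and Ccnb2-ps.

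Cdk1, which encodes the kinase that both cyclins activate, read 7.0, 6.97 and 6.87 in WT, 7.02, 6.93 and 6.90 in S970A, and 6.95, 7.13 and 6.98 in S970D. The groups overlapped, and the difference between S970D and WT was 0.07 ± 0.12 (limma adjusted p 0.657). Ccnb2, encoding the other mitotic cyclin of the B type, had a difference of 0.00 ± 0.14. The CDC25 phosphatases, which remove the inhibitory phosphates from CDK1, gave 0.01 ± 0.12 for Cdc25b and -0.18 ± 0.28 for Cdc25c, the latter with SDs of 0.44 in S970A and 0.46 in S970D. In ratios chosen after the values had been seen, and so given with no test, the log2 ratio of Cdk1 to Ccna2 went from a mean of -0.84 ± 0.32 (SD, n = 3) in WT to 0.31 ± 0.13 in S970D, and that of Ccnb1 to Ccna2 from -0.48 ± 0.13 to 0.25 ± 0.13.

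The mitotic kinases divided in the same way, with 3 of 5 lower with the block and the others near 0. Plk1, the Polo-like kinase of mitotic entry and spindle assembly, read 7.19, 7.40 and 7.25 in WT, 7.24, 7.42 and 7.45 in S970A, and 7.22, 7.34 and 7.18 in S970D. The libraries of the 3 groups were interleaved, with an S970D difference of -0.04 ± 0.13 from WT (limma adjusted p 0.84). Aurka, the centrosomal Aurora kinase, read 6.73, 6.65 and 6.62 in WT, 6.82, 6.74 and 6.61 in S970A, and 6.71, 6.71 and 6.63 in S970D. Here too the groups overlapped, at 0.02 ± 0.12. Ttk, which encodes the MPS1 kinase that starts checkpoint signalling at kinetochores, read 4.62, 4.78 and 4.97 in WT, 4.27, 4.84 and 4.87 in S970A, and 4.08, 4.31 and 4.18 in S970D. The S970D libraries lay below all of WT but not below S970A replicate 1, at -0.60 ± 0.19 against WT (limma adjusted p 0.0756, with the block 0.012). The other kinase genes that passed with the block were Bub1, encoding a checkpoint kinase of the kinetochore (-0.83 ± 0.26, adjusted p 0.00669 with the block), and Nek2, encoding a centrosome separation kinase (-0.67 ± 0.22, adjusted p 0.00757 with the block), both at 0.0756 without it.

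Among the 6 genes of the spindle checkpoint and anaphase onset, 2 were lower and 3 higher with the block. With the length and GC trend described below removed, and the block, Cdc20 (0.23, limma adjusted p 0.144) and Ube2c (-0.06, 0.628) no longer passed as higher. Bub1b encodes BUBR1, which binds and inhibits the APC/C activator CDC20. It read 6.63, 6.84 and 6.88 in WT, 6.14, 6.86 and 6.78 in S970A, and 5.59, 6.18 and 6.26 in S970D. All S970D values were below WT, with S970A replicate 1 among them, and the difference was -0.77 ± 0.24 (limma adjusted p 0.0756, with the block 0.00669). Bub3, encoding the partner that brings BUB1 and BUBR1 to kinetochores, was lower by a similar amount (-0.64 ± 0.19, adjusted p 0.0756, with the block 0.00985). Mad2l1, encoding the checkpoint protein MAD2, read 6.56, 6.76 and 6.60 in WT, 6.57, 6.79 and 6.56 in S970A, and 6.07, 6.78 and 6.13 in S970D. S970D replicate 2 sat with the WT libraries while replicates 1 and 3 were below them, and the difference of -0.31 ± 0.20 did not pass (limma adjusted p 0.236, with the block 0.0981).

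Cdc20, the APC/C activator of anaphase, read 6.14, 5.94 and 5.82 in WT, 6.73, 6.02 and 5.87 in S970A, and 6.67, 6.68 and 6.54 in S970D. The S970D libraries were above all WT libraries, S970A replicate 1 was higher still, and the level in S970D was 1.58 times that in WT (0.66 ± 0.22, limma adjusted p 0.0756, with the block 0.0145). Ube2c encodes the ubiquitin-conjugating enzyme that works with the APC/C. It read 7.50, 7.32 and 7.25 in WT, 7.79, 7.40 and 7.29 in S970A, and 7.78, 7.86 and 7.60 in S970D. S970D exceeded WT without overlap by 0.39 ± 0.16 (limma adjusted p 0.105, with the block 0.0372). Pttg1, encoding securin, the separase inhibitor that the APC/C destroys, also passed with the block (0.69 ± 0.27, adjusted p 0.0912, with the block 0.0126). Exons of Elovl1 overlap Cdc20 and exons of Tnnc2 overlap Ube2c on the other strand. The log2 ratio of Cdc20 to Bub1b, another ratio chosen after the values had been seen, was -0.82 ± 0.29 in WT, -0.39 ± 0.85 in S970A and 0.61 ± 0.41 in S970D (SD, n = 3 each). All 3 S970D values (0.27 to 1.07) exceeded the highest WT value (-0.49). That separation follows from the 2 genes, which each differed without overlap and in opposite directions, and adds nothing to them. The difference of 1.43 between S970D and WT in this ratio was 0.81 with the length and GC trend removed.

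**Figure D2:**
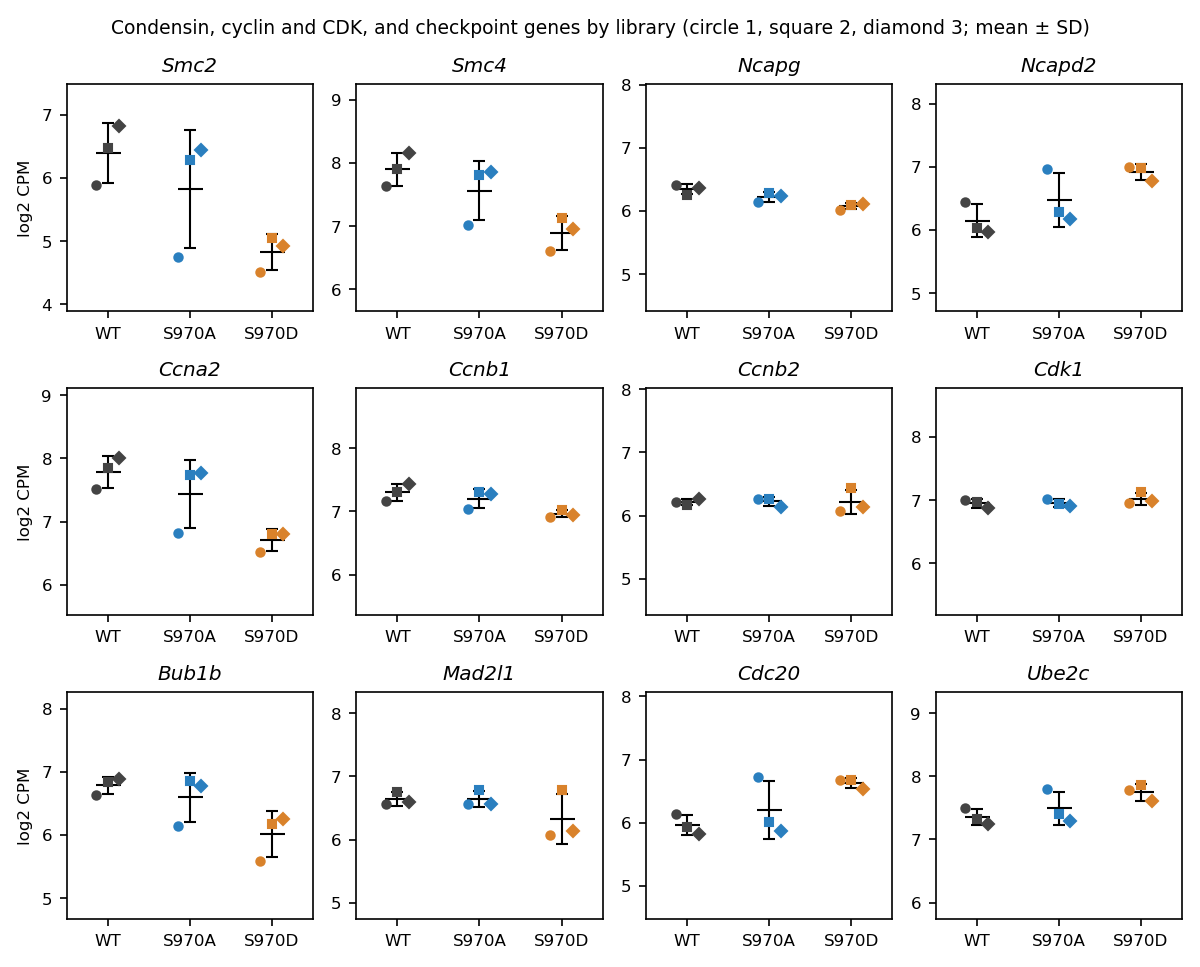
Log2 CPM of 12 members in each library, with 1 panel per gene, groups on the horizontal axis, symbols for replicates 1 to 3, and the mean with its SD as a bar and whiskers; every panel spans the same range of log2 CPM. Smc2, Smc4, Ccna2 and Bub1b lie lower in S970D, Ncapd2, Cdc20 and Ube2c lie higher, Cdk1 and Ccnb2 overlap between groups, and the S970A circle (replicate 1) lies near the S970D points for Smc2, Ncapd2, Ccna2 and Cdc20.

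The chromosomal passenger complex, which corrects faulty attachments and directs cytokinesis, had 0 of 4 genes past the threshold with the block, and 0 at an unadjusted p under 0.05. Aurkb, encoding its kinase, read 4.40, 4.47 and 4.52 in WT, 4.29, 4.55 and 4.63 in S970A, and 4.13, 4.25 and 4.34 in S970D. The S970D libraries were below WT without overlap, but by only -0.22 ± 0.14 (limma adjusted p 0.237, with the block 0.148). Birc5, encoding survivin, read 7.75, 7.23 and 7.22 in WT, 7.90, 7.53 and 7.24 in S970A, and 7.88, 7.67 and 7.90 in S970D. WT replicate 1 overlapped S970D, and the difference was 0.42 ± 0.21 (limma adjusted p 0.15, with the block 0.0534). The scaffold gene Incenp and the borealin gene Cdca8 gave 0.23 ± 0.16 and 0.29 ± 0.17, and neither passed.

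Of the 5 centromere and kinetochore genes, Nuf2 was lower and Cenpa higher with the block. Cenpf, encoding a large kinetochore and nuclear matrix protein, read 7.10, 6.84 and 6.88 in WT, 7.05, 6.94 and 6.83 in S970A, and 6.90, 6.99 and 7.06 in S970D. Its groups overlapped at a difference of 0.05 ± 0.13 (limma adjusted p 0.795). Nuf2 and Ndc80 encode partners in the complex that grips microtubules, and differed by -0.40 ± 0.13 (limma adjusted p 0.0756, with the block 0.0206) and -0.04 ± 0.13. Cenpa, encoding the histone H3 variant that marks centromeres, differed by 0.35 ± 0.17 (adjusted p 0.138, with the block 0.0422), and Cenpe, encoding a kinetochore motor, by 0.14 ± 0.27.

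The spindle and microtubule genes were mostly on the low side in S970D, with 5 of 9 lower and 1 higher with the block. Ckap2l, which encodes a spindle pole protein, read 6.15, 6.53 and 6.68 in WT, 5.41, 6.36 and 6.44 in S970A, and 5.44, 5.53 and 5.69 in S970D. S970A replicate 1 was lower than every S970D library, and S970D was below all WT libraries, by -0.90 ± 0.27 (limma adjusted p 0.0756, with the block 0.00757). Ckap5 encodes the microtubule polymerase chTOG. It read 6.97, 7.28 and 7.35 in WT, 6.69, 7.18 and 7.35 in S970A, and 6.41, 6.77 and 6.49 in S970D. S970D lay below WT without overlap by -0.64 ± 0.20 (limma adjusted p 0.0756, with the block 0.00929). Tacc3, whose product binds chTOG on spindle microtubules, went the other way (0.64 ± 0.26, adjusted p 0.0933, with the block 0.0157). The log2 ratio of Tacc3 to Ckap5, chosen after the values had been seen, averaged -0.70 ± 0.57 in WT and 0.59 ± 0.29 in S970D, a difference of 1.29 that was 0.64, with overlapping groups, once the length and GC trend described below was removed. Hmmr (-0.88 ± 0.29), Dlgap5 (-0.45 ± 0.14) and Nusap1 (-0.42 ± 0.16), which encode microtubule-binding spindle proteins, were lower with the block at adjusted p-values of 0.00663, 0.0223 and 0.0185, and at 0.0756, 0.0756 and 0.0835 without it. The differences of Tpx2, encoding the spindle activator of Aurora A (-0.16 ± 0.13), Ckap2 (-0.16 ± 0.13) and Gtse1 (-0.14 ± 0.12) did not pass.

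Genes of chromosome structure held the extremes in both directions, with 4 of 7 lower and 1 higher with the block. Smc2 (chr4:52439243-52488260, plus strand, GRCm38 with GENCODE vM21 gene bounds, as for the other genes located below) encodes an ATPase core subunit of both condensin complexes. It read 5.89, 6.48 and 6.82 in WT, 4.75, 6.29 and 6.44 in S970A, and 4.51, 5.05 and 4.92 in S970D. Every S970D library was below WT, as was S970A replicate 1. The level of Smc2 in S970D was 0.338 of that in WT, at -1.57 ± 0.43 (limma adjusted p 0.0756, with the block 0.00642). Smc4, encoding the other core ATPase, read 7.64, 7.90 and 8.16 in WT, 7.02, 7.81 and 7.86 in S970A, and 6.60, 7.13 and 6.96 in S970D. The order of the libraries resembled that of Smc2, at -1.01 ± 0.26 (limma adjusted p 0.0756, with the block 0.00642).

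Ncapd2 (chr6:125168007-125191701, minus strand), encoding a HEAT-repeat subunit of condensin I, passed with the block in the direction opposite to both core subunits. It read 6.44, 6.03 and 5.96 in WT, 6.96, 6.28 and 6.18 in S970A, and 7.0, 6.98 and 6.77 in S970D. All S970D values exceeded WT, by 0.77 ± 0.22 (limma adjusted p 0.0756, with the block 0.00733), and S970A replicate 1 again lay with S970D. Exons of Gm28967 and Scarna10 overlap Ncapd2 on the same strand. Ncapg, encoding another condensin I subunit, differed by -0.27 ± 0.12 (limma adjusted p 0.11, with the block 0.0818). As ratios chosen after the values had been seen, Ncapd2 to Smc2 averaged -0.25 ± 0.72 in WT, 0.65 ± 1.36 in S970A and 2.09 ± 0.35 in S970D on the log2 scale, and Ncapd2 to Ncapg -0.20 ± 0.21, 0.25 ± 0.50 and 0.84 ± 0.16 (SD, n = 3 each). With the length and GC trend removed the difference between S970D and WT went from 2.34 to 1.56 for Ncapd2 to Smc2 and from 1.04 to 0.39 for Ncapd2 to Ncapg.

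Top2a, encoding the topoisomerase that untangles sister chromatids, read 8.46, 8.22 and 8.26 in WT, 8.65, 8.21 and 8.11 in S970A, and 8.48, 8.46 and 8.54 in S970D. The highest WT value met the lowest S970D value to the second decimal, with no overlap beyond it, and the difference was 0.18 ± 0.16 (limma adjusted p 0.399). Mki67, the Ki-67 gene, whose product coats mitotic chromosomes and serves as a marker of proliferation, read 9.04, 9.47 and 9.65 in WT, 8.87, 9.34 and 9.37 in S970A, and 8.56, 8.87 and 8.77 in S970D. S970D was below WT without overlap, at -0.66 ± 0.21 (limma adjusted p 0.0756, with the block 0.00736). Cdca2, encoding the chromatin phosphatase adaptor Repo-Man, read 4.98, 5.29 and 5.38 in WT, 4.44, 5.01 and 5.02 in S970A, and 4.22, 4.56 and 4.73 in S970D. It was lower in S970D by -0.71 ± 0.21 (limma adjusted p 0.0756, with the block 0.0065), again without overlap with WT.

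Cytokinesis genes were lower in 3 of 4 cases with the block. Ect2 (chr3:27097222-27153878, minus strand), encoding the exchange factor that activates RhoA at the cleavage furrow, read 5.63, 6.10 and 6.31 in WT, 4.73, 5.95 and 6.10 in S970A, and 4.50, 4.99 and 4.83 in S970D. The S970D libraries were below all of WT, and S970A replicate 1 lay among them. The difference of -1.24 ± 0.35 left 0.424 of the WT level (limma adjusted p 0.0756, with the block 0.00642). Prc1, encoding the bundler of the central spindle, read 6.78, 7.01 and 7.13 in WT, 6.40, 6.82 and 6.92 in S970A, and 6.43, 6.22 and 6.72 in S970D. Its S970D libraries were below WT by a narrow gap, at -0.52 ± 0.19 (limma adjusted p 0.0813, with the block 0.0201). Anln, encoding the furrow scaffold anillin, resembled Ect2 (-1.19 ± 0.40, adjusted p 0.0758, with the block 0.00654), whereas Cdca3, which encodes a trigger of mitotic entry, gave 0.08 ± 0.15.

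S970A was not told apart from WT in these genes. The comparison shares its WT libraries with that of S970D. With limma, 0 of 46 passed (0% of all genes), and 0 had an unadjusted p under 0.05, beside 1.75% of all genes. The replicate block also gave 0 members, at 0% of all genes, as did leaving out S970A replicate 1, at 0%. The 6 members with the largest moderated t were Cdca2 (-0.39 ± 0.21), Ncapd2 (0.33 ± 0.22), Ckap2l (-0.38 ± 0.27), Prc1 (-0.26 ± 0.19), Ccna2 (-0.35 ± 0.26) and Smc2 (-0.57 ± 0.43), each with a limma adjusted p of 0.776. Without S970A replicate 1 these became -0.20, 0.09, -0.05, -0.10, -0.04 and -0.03. The S970A and WT libraries did not overlap in 1 member that was lower, Nuf2, beside 3.32% of all genes, and in 0 that were higher, beside 3.1%. A p that misses the threshold with 3 libraries a group does not show that S970A acts as WT does.

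S970D against S970A shares its S970D libraries with the first comparison, so the values are given side by side only. With limma 0 of 46 members passed (0% of all genes, and 0% with the block). At an unadjusted p under 0.05 there were 8, or 17.4%, beside 6.95% of all genes, namely Ccna2, Ttk, Bub1b, Bub3, Ckap5, Smc2, Smc4 and Ect2, with differences from -1.0 for Smc2 to -0.44 for Bub3. Leaving out S970A replicate 1, which lies near the S970D mean in these same genes, widens this comparison by construction, so the counts that follow are a description and no support for a difference. Without it 14 members were lower and 5 higher at a limma adjusted p under 0.05, or 30.4% and 10.9%, beside 20.8% and 18.7% of all genes. The 6 members in which S970D lay below S970A with no overlap were Ccna2, Ccnb1, Nuf2, Dlgap5, Ncapg and Mki67, beside 4.11% of all genes, and none lay above, beside 3.96%. The moderated F test for any difference among the 3 groups gave 0 members (0% of all genes), 19 at an unadjusted p under 0.05 beside 24.7%, and 20 with the replicate block beside 29.5%.

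Transcript length and base composition moved with the difference between S970D and WT, in these genes as in the whole table. Across the 46 members the difference had a Spearman rho of -0.453 with transcript length and 0.532 with GC content, beside -0.445 and 0.518 over 15959 genes. These are correlations across genes of the same libraries, which are not independent replicates. Members were 947 to 11130 bases long, with a GC content from 39.7% in Smc2 to 56.0% in Plk1. When the trend over length and GC content was removed from each library, the rho over members was 0.0559 and -0.0902, and the median member difference was -0.09 in place of -0.20. No member passed without the block in that setting, at 0% of all genes. With the block 12 were lower, beside 12.2% of all genes, and 7 higher, beside 12.7%.

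**Figure D3:**
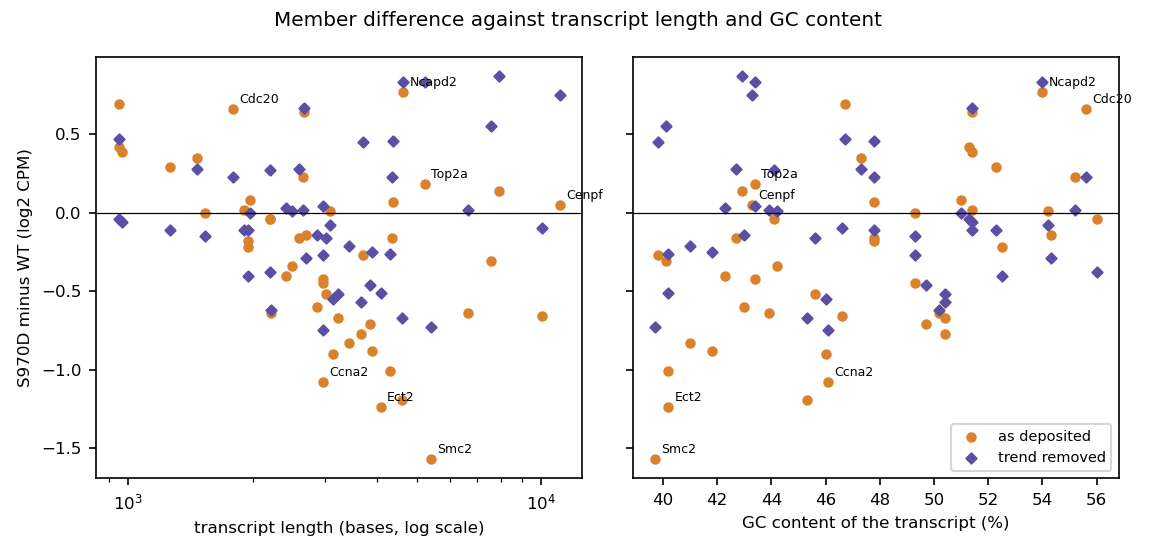
Difference between S970D and WT in log2 CPM (vertical) for the 46 members against transcript length in bases on a log scale (left) and GC content in percent (right), as deposited (circles) and with the length and GC trend removed (diamonds). The circles slope down with length (rho -0.453) and up with GC content (rho 0.532), and the diamonds show little slope (0.0559 and -0.0902).

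The genes that passed with the block and, in the same direction, with the trend removed and the block were 9 lower ones, Ccna2, Nek2, Bub1b, Bub3, Ckap2l, Smc2, Cdca2, Ect2 and Anln, and 3 higher ones, Pttg1, Tacc3 and Ncapd2. Ccna2 was at -0.75, Smc2 at -0.73, Ect2 at -0.51 and Ncapd2 at 0.83 with the trend removed. Another 14 genes no longer passed, Ccnb1, Ttk, Bub1, Cdc20, Ube2c, Cenpa, Nuf2, Ckap5, Nusap1, Hmmr, Dlgap5, Smc4, Mki67 and Prc1. Of these Ccnb1, Nuf2, Ckap5 and Nusap1 changed sign to between 0.01 and 0.04, and Ube2c to -0.06. Genes that passed with the trend removed and the block, but not with the block alone, were Cdk1 (0.46), Cenpf (0.75), Top2a (0.83) and Ncapg (0.45) as higher and Plk1 (-0.38), Aurkb (-0.40) and Gtse1 (-0.29) as lower. No share of all genes was computed for these joint conditions, so the counts are not read as a result about the members. Summed CPM of 31 ribosomal protein genes, whose transcripts are short, was 20700 to 34000 in WT, 22900 to 53700 in S970A and 46000 to 54200 in S970D. The part of the ribosomal protein share in the members' differences was not tested.

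**Figure D4:**
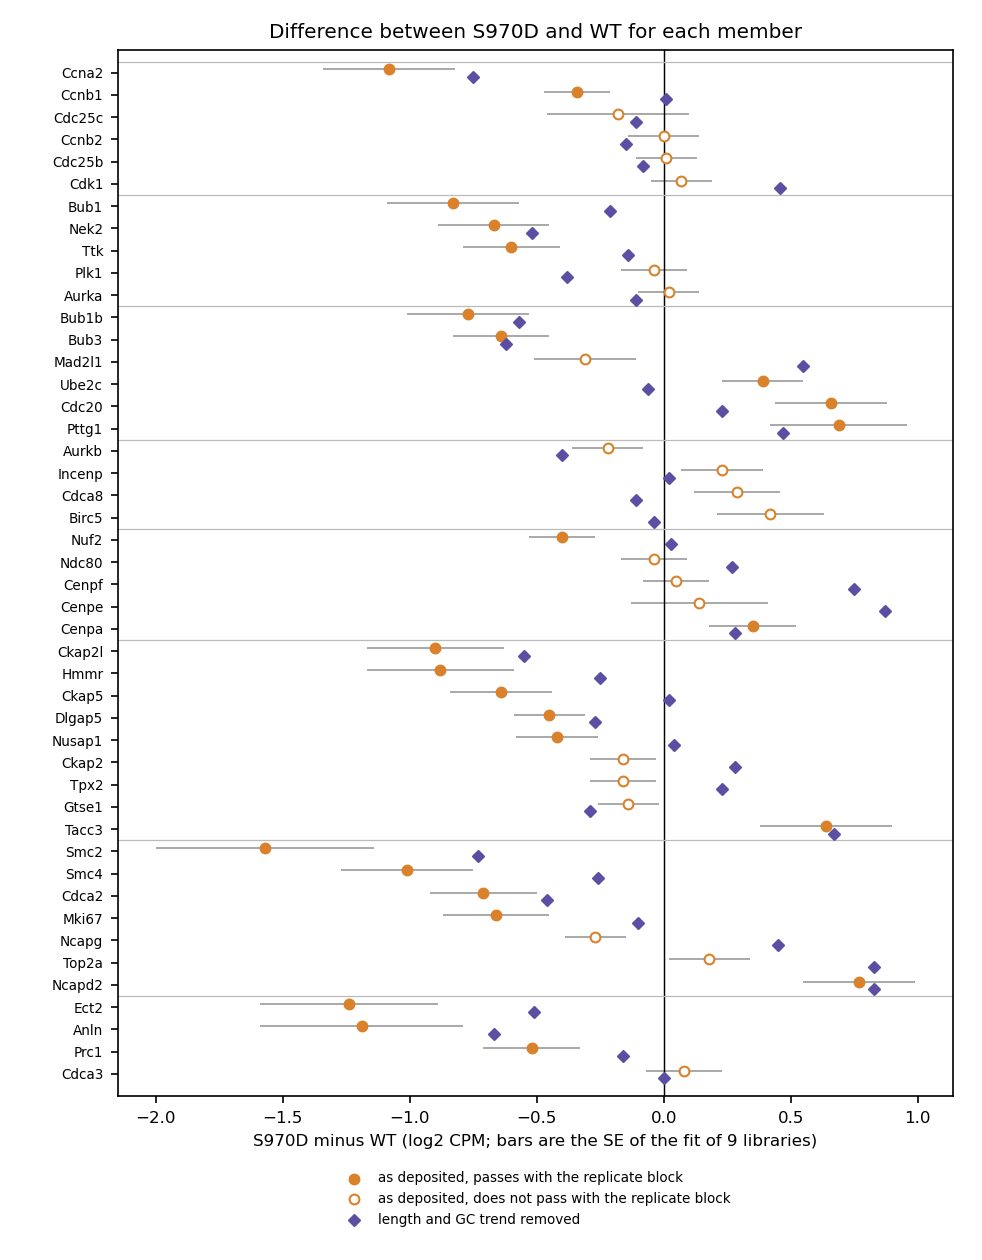
Difference between S970D and WT (log2 CPM, horizontal) for each of the 46 members, grouped by role, as deposited with the SE of the limma fit of 9 libraries (circles, filled where the gene passed with the replicate block) and with the length and GC trend removed (diamonds). Filled circles lie left of 0 for 20 genes and right of it for 6, and the diamonds of Ccna2, Smc2 and Ncapd2 remain far from 0 while those of Ckap5, Nuf2 and Ccnb1 lie at 0.01 to 0.03.

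Levels of different genes were compared per kilobase of transcript. In WT the highest log2 CPM per kilobase belonged to Birc5 (7.50), Ube2c (7.41), Cdca8 (6.70) and Bub3 (6.66), and the lowest to Cdc25c (3.05), Ttk (3.28), Cdca2 (3.28) and Cenpe (3.29). Birc5, Ube2c and Cdca8 also led in S970D, at 7.90, 7.80 and 6.99, while Smc2 went from 4.01 in WT to 2.41, the lowest level of any member there. The WT neighbours Birc5 and Ube2c, or Cdca8 and Bub3, were closer than the SDs of their own replicates (0.13 to 0.30 and 0.11 to 0.14). Summed over the 46 members, CPM was 5200 to 5770 in WT, 5070 to 5370 in S970A and 4530 to 4960 in S970D, or 0.535% to 0.588%, 0.474% to 0.554% and 0.424% to 0.489% of the library's summed CPM.

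The authors' deposited table gives cluster colours, and 19 of the 46 members (41.3%) are turquoise, as are 18.5% of all genes. The 20 members that are lower with the block are these 19 and Cdca2, which is yellow in the authors' deposited table. Cdc20, Cenpa, Ncapd2 and Ube2c are blue there, Pttg1 and Tacc3 brown, and the other 20 members have no colour. How the authors' deposited table assigns colours is not given in the sources used here, and colours made from the same libraries are a description only.

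Further genes of the pathway, 130 in 8 lists drawn up with earlier results of these data known, were read for context, and 128 were in the table. In S970D against WT, limma called 0 of them without the block, 72 (56.2%) had an unadjusted p under 0.05 beside 44.3% of all genes, and with the block 49 (38.3%) were lower and 29 (22.7%) higher, beside the 23.3% and 22.2% of all genes, at a median difference of -0.18. Cohesin and separase genes were lower in 11 of 13 cases and higher in none, with Smc3, a core subunit of the cohesin ring, at -1.1 ± 0.28 (limma adjusted p with the block 0.00642), its partner Stag2 at -0.86 ± 0.26 and the acetyltransferase gene Esco2 at -1.03 ± 0.28. With the trend removed and the block 2 of the 13 were lower, a share near the 12.2% of all genes. Smc3 was among them at -0.42, while Stag2 turned to 0.09 (limma adjusted p 0.531) and Esco2 was at -0.30 (0.0749). The APC/C list had 6 higher and 3 lower of 17, with the subunit genes Anapc4 (1.14 ± 0.33), Anapc13 (1.1 ± 0.36) and Anapc11 (1.08 ± 0.33) among the higher. The 3 lower genes, named after their values were seen, were Cdc27 (-1.27 ± 0.42), Fbxo5 (-0.59 ± 0.16) and Cdc23 (-0.57 ± 0.21). With the trend removed and the block Anapc13 was at 0.26 and Cdc23 at -0.17, and neither passed. The remaining condensin genes had 3 lower and 1 higher of 4, with Ncapg2 at -1.21 ± 0.37, Ncapd3 at -0.85 ± 0.27 and Ncaph at -0.66 ± 0.24, of which Ncapd3 no longer passed with the trend removed and the block (-0.35, limma adjusted p 0.0549).

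The list counts in this paragraph are with the block and stand beside 23.3% of all genes lower and 22.2% higher. Those of the entry kinases and phosphatases and of the other kinetochore genes lie near these shares, and are not read as results about the lists. Regulators of G2 and M transcription were lower in 8 and higher in 3 of 16. Lin54, whose product reads the CHR shown in the promoters above, was at -1.28 ± 0.37 (limma adjusted p 0.0756, with the block 0.00642). The pocket protein gene Rbl2 was at -1.19 ± 0.36 and the E2F partner gene Tfdp1 at -0.97 ± 0.30. With the trend removed these 3 genes were at -0.59, -0.72 and -0.67, and passed with the block. Named after their values were seen, Lin9 was lower (-1.21 ± 0.34, limma adjusted p with the block 0.00669) and Lin37 higher (1.19 ± 0.39, 0.00642). The part of any of these genes in the members' differences was not tested. Foxm1 and Mybl2, given because they encode the FOXM1 and B-MYB factors named above, differed by -0.09 ± 0.15 and -0.16 ± 0.13. Neither passed with the block, and Mybl2 passed with the trend removed and the block (-0.33, limma adjusted p 0.0366). Among entry kinases and phosphatases, 3 higher and 3 lower of 16, Pkmyt1, encoding the MYT1 kinase that inhibits CDK1, was at 1.49 ± 0.41 and Arpp19, encoding an inhibitor of the phosphatase PP2A, at 1.06 ± 0.31, against -0.79 ± 0.34 for the checkpoint kinase gene Chek1. Chek1 had a limma adjusted p of 0.106 without the block, and was at -0.13 (0.489) with the trend removed and the block. Other kinetochore genes had 9 higher and 7 lower of 33, with Cenpm at 1.19 ± 0.37, Cenpc1 at -1.29 ± 0.34 and Zwilch at -1.17 ± 0.34. Centrosome and spindle pole genes had 13 lower and 4 higher of 23, with Sass6 at -1.47 ± 0.47, Cep55 at -1.16 ± 0.34 and Nedd1 at -1.0 ± 0.30, the last at -0.36 and no longer past the threshold with the trend removed and the block. The CDK inhibitors had 3 higher and 1 lower of 6, with Cdkn2a at 0.77 ± 0.27, Cdkn2d at 0.49 ± 0.23 and Cdkn1a at 0.38 ± 0.13. The lower gene, named after its values were seen, was Cdkn1b, which encodes p27, at -1.9 ± 0.75 (limma adjusted p 0.09, with the block 0.0398). With the trend removed and the block none of the 3 passed as higher, with Cdkn2a at -0.21, Cdkn2d at -0.07 and Cdkn1a at 0.11, and Cdkn1b at -1.28 did not pass either (limma adjusted p 0.144).

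**Figure D5:**
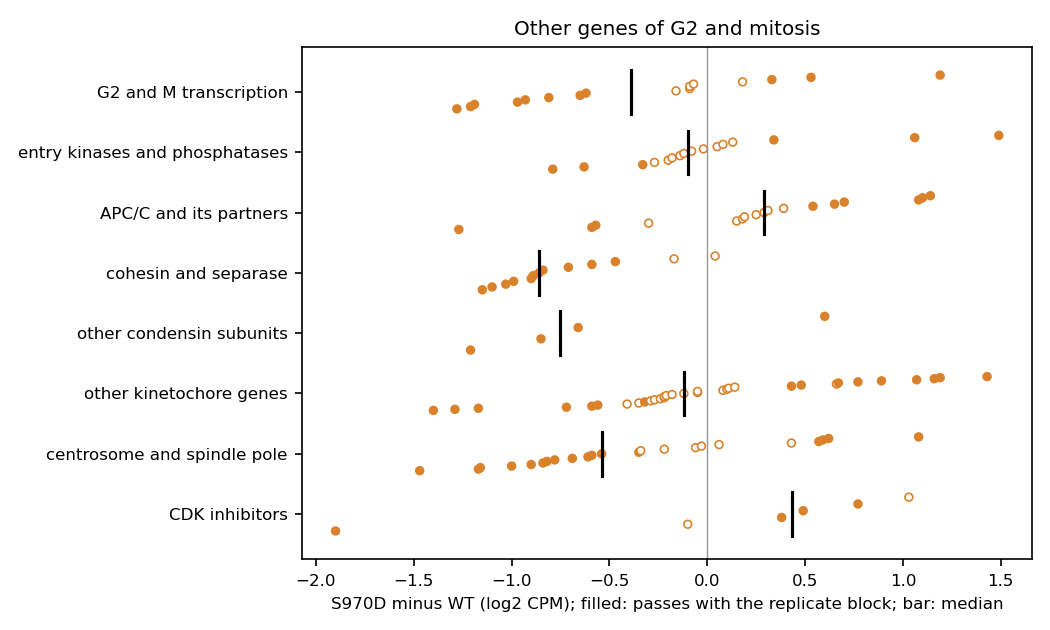
Difference between S970D and WT (log2 CPM, horizontal) for 128 further genes of G2 and mitosis in 8 lists, 1 circle per gene, filled where the gene passed with the replicate block, with a vertical bar at each list's median. Of the 13 cohesin and separase genes 11 are filled, all left of 0, and the APC/C list has a median of 0.29.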

How the data were processed

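The authors deposited 1 table of log2 CPM for 15977 genes, 1 column per library and replicates not pooled. How low genes were filtered, how libraries were scaled and which prior count was used is not stated by the labels, and the depth is unknown, so no counting intervals are given. Salmon 1.1.0, bcl2fastq 2.20, R 3.6.3 and the build GRCm38 are listed in the submitters' processing notes, with no role or order. A prior count inside a log2 value shrinks the differences of low genes, and all 46 members had a mean log2 CPM over 1.

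The labels gave the groups and the replicate numbers. limma 3.58.1 in R 4.3.3 was fitted to the log2 values of all genes and 9 libraries, with no term but the group, 6 residual degrees of freedom, an intensity trend in the moderated variances, and two-sided p-values adjusted over the whole table by the Benjamini-Hochberg method. The threshold was an adjusted p of 0.05. Only the fit with the group as its sole term was tested on simulated data, which held no replicate structure and no length or GC trend. The fits with the replicate block or with the trend removed were not tested in this way. The members and all gene lists were chosen with earlier results of these data known. Values in every library are given for the 6 members with the largest moderated t per comparison and for 16 representatives of the roles. Up to 3 further genes per list are named by rule, those that pass with the replicate block and have the largest t in that fit. Any others carry their reason where they are named.

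The labels give the groups the same replicate numbers with no word on their meaning. Between same-numbered S970D and WT libraries, deviations from group means correlated at 0.308, 0.107 and 0.156, each above 0.1. On that ground the fit with the replicate block is given beside the results. A correlation across genes cannot show that libraries were paired, so whether the numbers mark pairs is not known. The correlations were 0.592, 0.0667 and 0.488 between S970A and WT, and 0.381, 0.00428 and 0.244 between S970D and S970A. The block was fitted to all 9 libraries, although the values for replicate 2 with S970A lay below 0.1. Both correlations with S970A were highest for number 1, whose S970A library stood apart from its group. A block takes up spread that same-numbered libraries share, and so can take up part of that library's deviation. How far the calls with the block rest on S970A replicate 1 was not tested.

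Transcript lengths and GC content came from GENCODE vM21 for 15959 genes, from the transcript with the longest coding sequence. Their trend was removed per library with splines of 5 degrees of freedom. Alternatives also tried were median centring, quantile normalization, leaving out genes with a mean log2 CPM under 1, adding 1 to the CPM before the log2, fitting the 6 libraries of a comparison alone, dropping the intensity trend, and leaving out each library.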

Additional observations from a re-analysis of the deposited data

How the results depend on the processing

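In S970D against WT, 0 members passed the threshold in the fit of 9 libraries, beside 0.00626% of all genes. With the replicate block 26 passed, beside 45.5%. With the length and GC trend removed and the block 19 passed, beside 24.9%. With 1 library left out the count was 0 to 26, the 26 without S970A replicate 1, beside 47.7%. Fitting only the 6 libraries of the comparison gave 24. For S970A against WT the count was 0 under every alternative run. For S970D against S970A it was 0 with the replicate block. It was 0 to 19 with 1 library left out, the 19 without S970A replicate 1, beside 39.5% of all genes. The F test gave 20 with the replicate block, beside 29.5%, and 6 with the trend removed and the block. With 1 library left out it gave 0 to 24, the 24 without S970A replicate 1. No share of all genes stands beside the 24 of the 6 libraries or the F test counts of 6 and 24. Those counts are therefore not read as a result about the members. With median centring the all-gene median of S970D against WT became 0.11, and that of the members went from -0.20 to -0.09, which lies 0.20 below it, and trend removal gave -0.09 with or without the block. Against S970A the member median of S970D went from -0.16 to -0.10 with median centring, to -0.09 with the trend removed, with or without the block, and to -0.27 without S970A replicate 1. For S970A against WT it went from -0.06 to 0.01 with the trend removed, with or without the block. With 1 library left out the member medians ran from -0.24 to -0.17, from -0.27 to -0.12 and from -0.11 to -0.03. Leaving aside differences that round to 0.00, the sign of the S970D difference from WT changed in 14 members with the trend removed, with or without the block, to 0.01 in Ccnb1, -0.08 in Cdc25b, -0.11 in Aurka, 0.55 in Mad2l1, -0.06 in Ube2c, -0.04 in Birc5, -0.11 in Cdca8, 0.27 in Ndc80, 0.03 in Nuf2, 0.23 in Tpx2, 0.28 in Ckap2, 0.02 in Ckap5, 0.04 in Nusap1 and 0.45 in Ncapg. Ccnb2 went from 0.00 to -0.15 and Cdca3 from 0.08 to -0.00. The sign also changed in Plk1 and Ndc80, each to 0.08 with median centring, and in Ndc80 to 0.05 with quantile normalization. Leaving out a library changed the sign in Cdc25b (-0.02 to -0.01), Cdc25c (-0.41 to 0.05 over the S970D libraries), Plk1 (0.03), Aurka (-0.01) and Cenpe (-0.04 to 0.34), none of which passed. The cause of these changes was not tested. Depth was not known, so it set no limit that could be given.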
